A study of Homo sapiens with 6 samples.

Results

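Histone H4 acetylation (H4ac) at the promoters of the RAB small GTPases was compared between H1975 lung cancer cells with hairpins against TIP60 and control cells. A gene was taken as a RAB gene where its symbol is RAB and digits, with nothing or 1 letter after them, and it entered where a listed H4ac region lay within 1000 bp of its start site. By this rule 42 RAB genes had a promoter region, among 11541 genes with one in the shTIP60-B table. The shTIP60-C table held one for 40 of them, among 11549 genes, and 40 had one in both. RefSeq lists 64 RAB symbols, so 22 had no region that close to a start site in either table; of these, 5 (RAB23, RAB33A, RAB39A, RAB8B and RAB9B) were the nearest gene of a region further away and 17, RAB5A, RAB25, RAB3A and RAB4B among them, were named by no region. Neither the symbol rule nor the distance rule uses a measured difference, though the family was chosen with earlier results of these data known. A region is listed where at least 1 of the libraries compared has a peak. The direction at a region called in a single library was thus largely fixed by how it was called.

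RAB proteins are the largest family of small GTPases in human cells and decide which membrane a transport vesicle leaves, travels to and fuses with. Each cycles between an active form bound to GTP, switched on by exchange factors and read by effector proteins on the membrane, and an inactive form bound to GDP, switched off by GTPase activators of the TBC family and drawn off the membrane by GDP dissociation inhibitors. TIP60, the acetyltransferase encoded by KAT5, acetylates histone H4 and other proteins, and acetylated H4 (H4ac) marks the start sites of active genes.

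All cells were H1975, a human non-small cell lung cancer line, carrying a tetracycline-inducible hairpin: shTIP60-B or shTIP60-C, both against TIP60, or shControl. All 3 received 0.5 ug/ml doxycycline for 2 days, so the controls carry an induced hairpin too. Each hairpin has 1 H4ac immunoprecipitation and 1 input library, 6 samples in all, and the input reads were not used here. There is therefore no replicate of any group, no test across samples can be made, and what follows describes these libraries. How far TIP60 fell was not measured in the files used here.

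The shTIP60-B table held 63299 regions with 5508475 reads of the knockdown and 6706229 of the control, and the shTIP60-C table held 66546 regions with 13429202 of the knockdown and 7043106 of the control. A peak called in both libraries is listed as overlapping regions, a copy from each library, so its reads enter these sums more than once. The 36034 regions called in the control alone or shared held 2842710 shTIP60-B, 6746689 shTIP60-C and 3638815 shControl reads. The median region had 49 shTIP60-B reads and 57 control reads in the first table, and 111 shTIP60-C reads and 57 control reads in the second. Both tables use the same control library, so the 2 sets of ratios share its errors. All 11 promoters of the lung epithelial marker genes examined, EPCAM and KRT18 among them, had an H4ac region in both tables, and 0 of 8 markers of blood, endothelium, liver and fibroblasts had one.

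DNA before the start sites of 5 genes is shown, not the sequence of their H4ac regions. RAB28 and RAB14 are the pair that fell past the threshold with shTIP60-B, and the RAB14 region is centred 556 bp inside the gene. RAB3B was lowest of the family in ratio with both hairpins, by each gene's region with most reads. RAB7A and RAB10 had many reads and ratios near 0 with shTIP60-B. Each sequence is the 250 bases before a RefSeq start site (GRCh38.p14), 5′ to 3′ on the gene's strand. Capitals mark the GC box GGGCGG and the ETS motif CCGGAAG on either strand. RAB28 is chr4:13484341-13484590 (minus strand), RAB14 chr9:121201870-121202119 (minus), RAB3B chr1:51990701-51990950 (minus), RAB7A chr3:128725933-128726182 (plus) and RAB10 chr2:26033834-26034083 (plus).
RAB28: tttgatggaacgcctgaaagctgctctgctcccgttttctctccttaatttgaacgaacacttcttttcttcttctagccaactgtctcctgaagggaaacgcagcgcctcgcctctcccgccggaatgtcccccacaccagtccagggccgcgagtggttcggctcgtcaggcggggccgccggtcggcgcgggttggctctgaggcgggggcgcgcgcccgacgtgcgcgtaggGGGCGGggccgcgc
RAB14: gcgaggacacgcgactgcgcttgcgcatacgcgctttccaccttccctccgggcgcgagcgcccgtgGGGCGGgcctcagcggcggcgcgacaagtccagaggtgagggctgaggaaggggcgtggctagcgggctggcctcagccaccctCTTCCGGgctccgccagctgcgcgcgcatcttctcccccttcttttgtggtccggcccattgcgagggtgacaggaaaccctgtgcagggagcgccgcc
RAB3B: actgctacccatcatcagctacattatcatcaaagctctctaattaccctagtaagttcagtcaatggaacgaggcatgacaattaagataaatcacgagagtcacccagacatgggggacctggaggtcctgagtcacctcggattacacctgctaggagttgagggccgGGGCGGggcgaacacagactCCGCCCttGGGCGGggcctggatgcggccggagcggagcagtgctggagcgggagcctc
RAB7A: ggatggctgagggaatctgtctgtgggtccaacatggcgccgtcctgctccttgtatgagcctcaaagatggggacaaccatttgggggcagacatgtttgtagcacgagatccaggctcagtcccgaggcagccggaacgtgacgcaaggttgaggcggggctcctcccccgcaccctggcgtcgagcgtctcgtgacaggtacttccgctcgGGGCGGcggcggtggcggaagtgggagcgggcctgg
RAB10: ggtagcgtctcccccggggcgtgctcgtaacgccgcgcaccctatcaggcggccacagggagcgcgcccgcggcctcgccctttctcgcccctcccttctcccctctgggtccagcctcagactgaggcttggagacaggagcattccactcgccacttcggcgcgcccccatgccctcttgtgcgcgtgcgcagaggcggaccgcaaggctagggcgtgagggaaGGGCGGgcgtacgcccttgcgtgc

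In these 250 bases RAB28, RAB7A and RAB10 each held 1 GC box, RAB3B held 3, and RAB14 held 1 GC box and 1 ETS motif. RAB3B had the lowest GC content of the 5 at 56.8%, against 65.6% in RAB28, 70.8% in RAB14, 64.8% in RAB7A and 71.2% in RAB10. Both promoters that fell and both with ratios near 0 thus carry a GC box.

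Across the family, 34 of the 42 genes matched 52 RefSeq promoter windows, which run from 250 bases before to 50 after a start, and motifs were searched on both strands. The GC box GGGCGG was in 76.9% of the RAB windows, in 66.7% of the windows of other genes with an H4ac promoter region, and in 45.0% of all 35116 windows. The ETS motif CCGGAAG was in 17.3%, 17.7% and 10.3% of these, and the E-box CACGTG in 9.62%, 9.58% and 7.26%, so for both the RAB share was close to that of other acetylated promoters. The YY1 core GATGGCG was in 7.69% of the RAB windows, 6.97% of other acetylated windows and 4.2% of all, and the NFY motif CCAAT in 28.8%, 34.0% and 34.6%. The TATA box TATAAA was in 3.85% of the RAB windows, 6.18% of other acetylated windows and 11.5% of all, and the NRF1 core letters GCGCATG in 1.92%, 6.97% and 4.43%. The CREB core TGACGTC was in none of the 52, against 5.05% of other acetylated windows and 3.45% of all. Median GC content was 63.7% in the RAB windows, 65.0% in other genes with a promoter region and 58.7% in all windows. Windows of 1 gene overlap, and a match is a run of letters, not a measured binding site.

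The first quantity is the level of H4ac at each RAB promoter. At 36034 regions called in the control library, both tables list the same coordinates, so all 3 libraries can be set side by side there, as reads per kilobase per 1000000 of that library's reads in these regions. Of the RAB genes, 39 had such a promoter region; RAB12, RAB3D and RAB30 had none under their own name. Regions chosen because the control library had a peak leave out promoters seen only after knockdown.

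The median level of the 39 RAB promoters was 18.7 in shTIP60-B, 19.5 in shTIP60-C and 19.99 in shControl cells, against 20.9, 21.7 and 21.0 over all 10775 genes with such a region. In the control library 46.8% of those genes had a lower level than the median RAB promoter, which puts the family near the middle of the acetylated promoters. RAB11B, which marks recycling endosomes, stood highest in the control, with levels of 35.7 in shTIP60-B, 47.5 in shTIP60-C and 57.5 in shControl cells. RAB1A, which directs traffic from the endoplasmic reticulum to the Golgi, had 38.6, 44.9 and 55.2 in the same order. RAB7A, the RAB of late endosomes, had 45.5 in shTIP60-B, 41.9 in shTIP60-C and 43.9 in shControl cells. RAB11B and RAB1A were thus lowest in shTIP60-B and highest in shControl cells, while the 3 RAB7A levels lay close together.

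**Figure D1:**
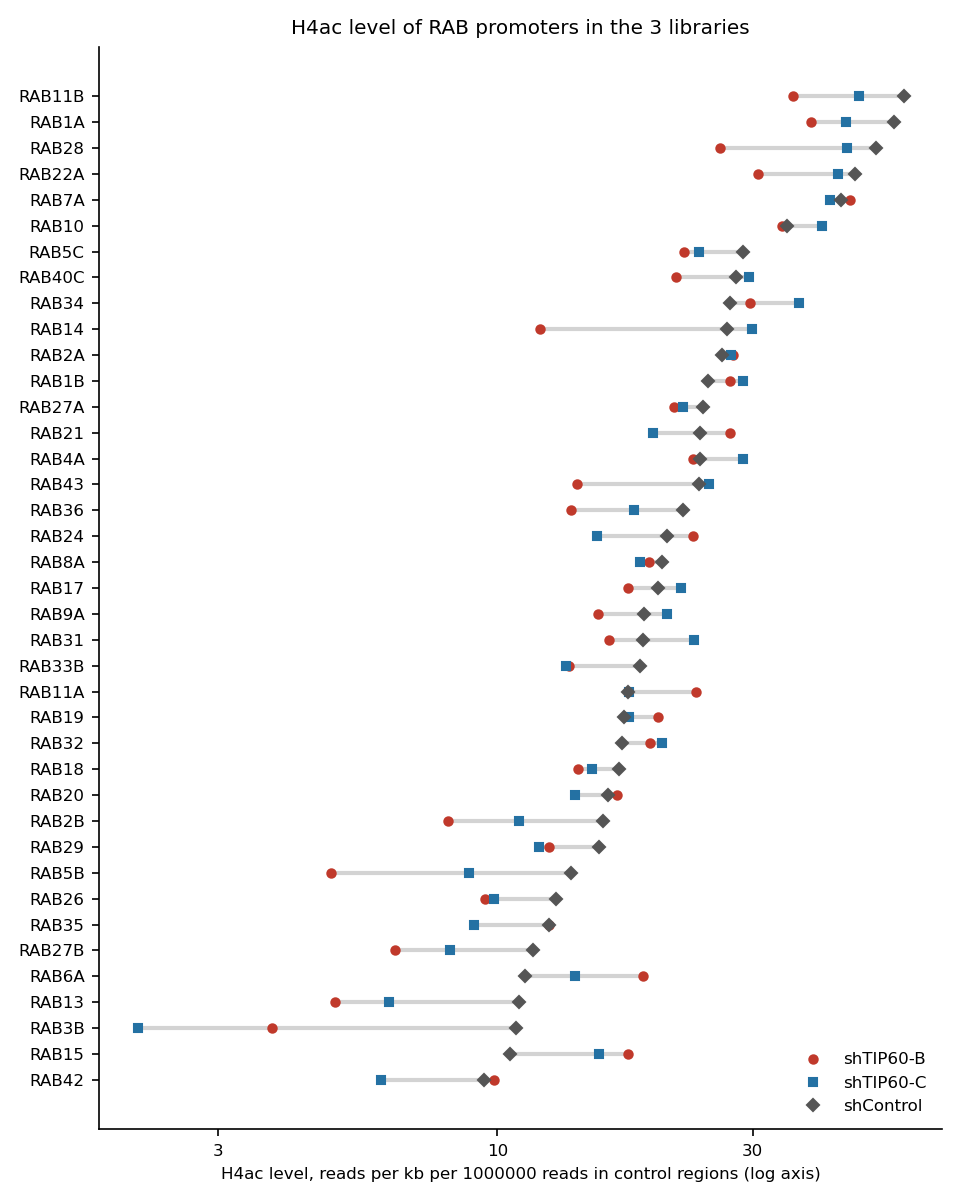
H4ac level (reads per kilobase per 1000000 reads in control regions, log axis) of the 39 RAB promoters with a region called in the control library, 1 point per library and no replicates, sorted by the shControl level. RAB11B leads at 57.5 in shControl cells and RAB42 closes at 9.46, and RAB3B is the promoter whose knockdown points (3.78 with shTIP60-B, 2.13 with shTIP60-C) lie farthest left.

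RAB28, a GTPase of the ciliary base in which mutations cause cone-rod dystrophy, came next to RAB11B and RAB1A in the control, at 26.1 in shTIP60-B, 45.0 in shTIP60-C and 51.1 in shControl cells. RAB22A, of early endosomes, had 30.8, 43.4 and 46.6 in that order. At the low end RAB42 had 9.83 in shTIP60-B, 6.06 in shTIP60-C and 9.46 in shControl cells, and RAB3B, of secretory granules, had 3.78, 2.13 and 10.8. Control levels of the 39 genes thus ran from 9.46 to 57.5, and no spread between samples can be given for any step in this order.

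In each deposited table M is a log2 ratio, knockdown over control, rescaled by the authors on shared peaks, so an M of -1 is a fold of 2 lower, and a change common to all regions would be removed. A gene is represented by its promoter region with the most reads. Behind each M stands a 95% counting interval, exact Clopper-Pearson on the 2 read counts, which covers counting error only; reads copied by PCR are not independent molecules. A promoter is said to have risen or fallen where the fold was at least 2 and the deposited p, which compares those 2 libraries and not the conditions, was at most 1e-05.

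With shTIP60-B, H4ac fell at 2 of the 42 RAB promoters, RAB28 and RAB14, and rose at 0. That is 4.76% lower, where 3.53% of all 11541 genes fell and 1.29% rose. The RAB28 region had 93 shTIP60-B reads and 233 control reads, an M of -1.09 in the authors' deposited table (interval -1.45 to -0.73), which is 2.12-fold lower at a deposited p of 8e-11. It covers the start site on chromosome 4, 13485303 to 13486557 (hg19, annotated promoter-TSS). The RAB14 region had 28 shTIP60-B reads and 80 control reads, and its deposited M was -1.41 (interval -2.08 to -0.77), 2.65-fold lower at a deposited p of 6.9e-06. It lies in intron 1 on chromosome 9, 123963400 to 123964219 (hg19), with its centre 556 bp inside the gene. RAB14 works between the trans-Golgi and endosomes and in GLUT4 traffic.

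Both calls depended on the settings. The other listed copy of the RAB14 region, with 29 shTIP60-B reads and 77 control reads, had a deposited p of 3.5e-05, and an exact binomial p on the counts of the first copy was 6e-05, both above the limit of 1e-05. For RAB28 the fold was 2.12, and subtracting the median M of its 10 Mb window left -0.89.

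At the looser fold of 1.5 with no p, 15 of 42 RAB promoters (35.7%) were lower with shTIP60-B and 2 (4.76%) were higher, beside 22.6% and 10.1% of all genes. Of these, 7 of the 15 lower (RAB13, RAB26, RAB27B, RAB29, RAB36, RAB3B and RAB5B) rest on a region called in the control only, and both higher (RAB12 and RAB3D) on one called in the knockdown only, so their direction is no support for a shift of the family. Of the 32 RAB promoters called in both libraries 8 (25%) were lower and 0 higher, beside 16.1% and 9.15% of 9732 such genes; the 8 were RAB11B, RAB14, RAB22A, RAB28, RAB2B, RAB33B, RAB43 and RAB5C.

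Scaled by the table totals in place of the authors' rescaling, 12 of the 42 were lower and 4 higher, beside 18.4% and 11.4% of all genes. After subtracting the median of each 10 Mb window 9 were lower and 4 higher, beside 16.1% and 11.3%. The median M of the 42 was -0.28, against -0.13 over all genes; it was -0.18 against -0.08 by table totals, -0.14 against -0.03 after the subtraction, and -0.10 against -0.07 over the promoters called in both libraries. M was below 0 for 27 of 42 (64.3%), against 58.8%. At a deposited p of 1e-05 with no fold, 6 of 42 were lower, RAB11B, RAB14, RAB1A, RAB22A, RAB28 and RAB43, where 6.49% of all genes were lower. Among the promoters with at least 100 reads in both libraries together, 8 of 28 RAB genes (28.6%) were lower by 1.5-fold and 0 were higher, beside 17.1% and 8.08% of all such genes. Under 100 reads, 7 of 14 were lower and 2 higher, beside 36.7% and 15.1% of such genes.

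With shTIP60-C, 0 of 40 RAB promoters fell and 0 rose, where 0.0433% and 0.147% of 11549 genes did. At a deposited p of 0.05, without a fold, 6 were lower and 3 higher, beside 8.92% and 11.1% of all genes. At the fold of 1.5, 4 of 40 (10%) were lower, RAB13, RAB3B, RAB42 and RAB5B, and 2 (5%) were higher, RAB12 and RAB35, beside 6.07% and 6.21% of all genes. The regions of the 4 were called in the control only and those of the 2 in the knockdown only, so their direction followed from how they were called; of the 34 called in both libraries 0 passed the fold, beside 3.44% lower and 4.22% higher of 10491 such genes. All 6 had under 100 reads: of the 32 RAB promoters with at least 100 reads 0 passed the fold of 1.5 in either direction, where 3.32% of such genes were lower and 4.56% higher. The median M of the 40 was -0.10, against 0.00 over all genes, and -0.07 against 0.01 over those called in both libraries.

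**Figure D2:**
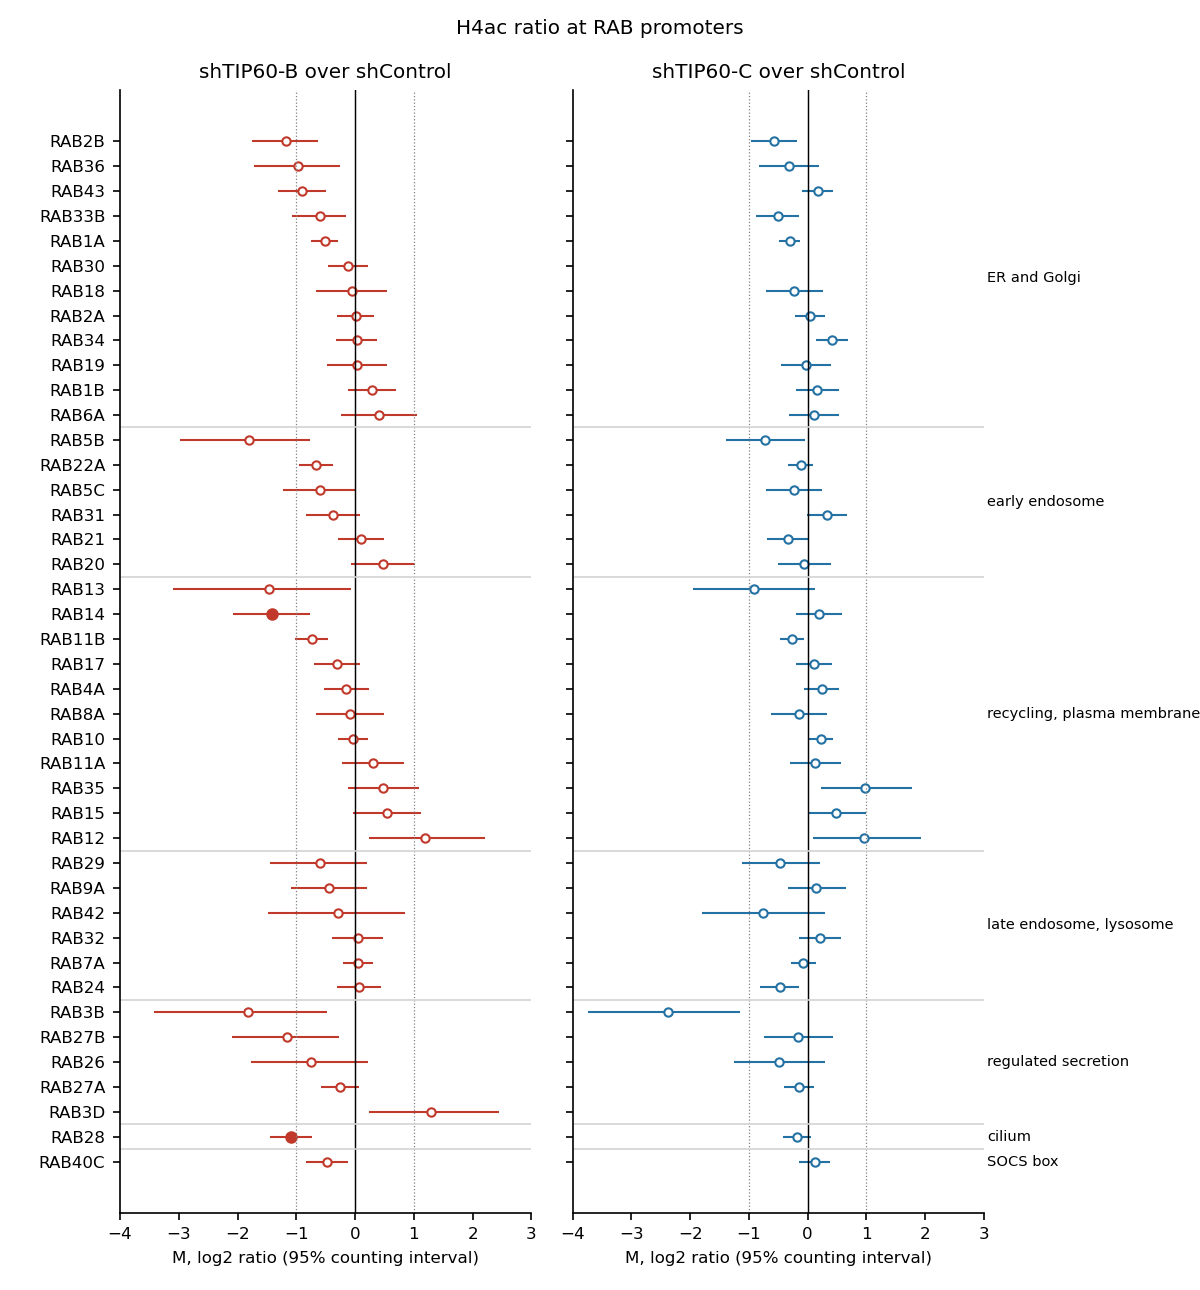
M (log2, knockdown over shControl) with its 95% counting interval for each RAB promoter, with shTIP60-B left and shTIP60-C right; rows are grouped by compartment, dotted lines mark a fold of 2, and filled points fell past fold 2 with a deposited p of at most 1e-05. RAB14 and RAB28 with shTIP60-B are the filled points; RAB3D and RAB30 have no shTIP60-C value.

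**Figure D3:**
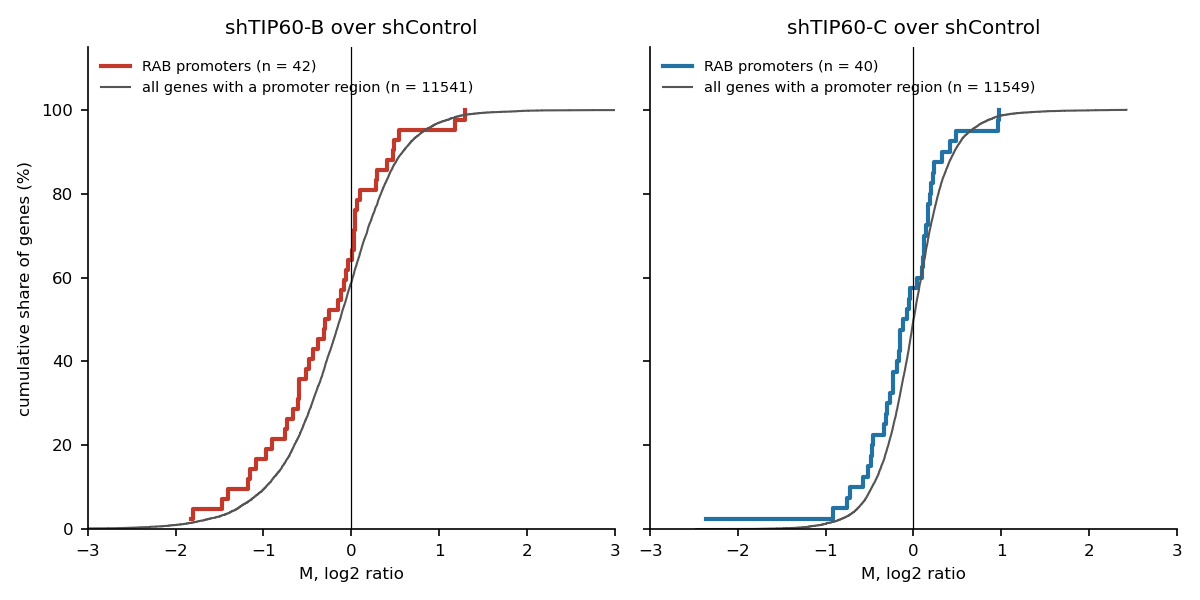
Cumulative share of genes (%) by M, for RAB promoters (coloured) and all genes with a promoter region (grey), with shTIP60-B left and shTIP60-C right. The RAB line lies left of the grey line over the lower part of both panels, with medians of -0.28 against -0.13 for shTIP60-B and -0.10 against 0.00 for shTIP60-C.

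By compartment, the RABs of the endoplasmic reticulum and Golgi came first in number. Of 12 measured with shTIP60-B 0 fell and 0 rose, 4 were lower by 1.5-fold, and their median M was -0.09; with shTIP60-C the 11 had a median M of -0.03 and 0 passed that fold. RAB1A, with the most reads of the family, had 240 shTIP60-B reads and 439 control reads, a deposited M of -0.52 (interval -0.75 to -0.28). With shTIP60-C it had 662 reads to the same 439, a deposited M of -0.30 (-0.48 to -0.13). Both intervals lay below 0, at well under a fold of 2.

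RAB2B, a Golgi RAB, had 40 shTIP60-B reads and 100 control reads, a deposited M of -1.18 (interval -1.75 to -0.64) and a deposited p of 1.1e-05, just above the limit. With shTIP60-C it had 129 knockdown and 100 control reads and a deposited M of -0.58 (-0.96 to -0.19). RAB33B, which binds the autophagy protein ATG16L1 at the Golgi, had 65 shTIP60-B reads and 113 control reads (deposited M -0.60), and 152 shTIP60-C reads and 113 control reads (-0.51). These 2 Golgi genes had intervals below 0 with both hairpins. RAB36, with 25 knockdown and 52 control reads, had a deposited M of -0.97 with shTIP60-B and, with 86 knockdown and 55 control reads, -0.32 with shTIP60-C.

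RAB43, also of the Golgi, differed between the hairpins. Its region had 77 shTIP60-B reads and 167 control reads, a deposited M of -0.90 (interval -1.31 to -0.50, deposited p 4.1e-06), and its narrower second region, with 40 knockdown and 101 control reads, had -1.19 at a deposited p of 8.2e-06. With shTIP60-C it had 374 knockdown and 176 control reads and a deposited M of 0.17 (-0.09 to 0.44). RAB6A, the RAB of Golgi retrograde traffic, had 48 shTIP60-B reads and 40 control reads (deposited M 0.40, interval -0.23 to 1.04), but its 2 regions centred 462 and 465 bp inside the gene had -0.41 and -0.66, with intervals that span 0 too. RAB34, of the Golgi and early cilium formation, had 399 shTIP60-C reads and 159 control reads, a deposited M of 0.41 (0.14 to 0.69), and 0.03 with shTIP60-B. RAB18, RAB19, RAB30, RAB1B and RAB2A had intervals that span 0 in each table that lists them.

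Among 6 early endosome RABs 0 fell or rose with either hairpin; 3 were lower by 1.5-fold with shTIP60-B and 1 with shTIP60-C, and the medians of M were -0.49 and -0.18. After subtracting the 10 Mb medians they were -0.09 and -0.17. RAB5B, which drives fusion of early endosomes, had 10 shTIP60-B reads and 36 control reads, a deposited M of -1.80 (interval -2.98 to -0.76). With shTIP60-C it had 43 knockdown and 36 control reads and -0.72 (-1.39 to -0.04). Its second region, centred at -590 bp from the start, had 8 knockdown and 36 control reads with shTIP60-B (deposited M -2.12, p 8.6e-05) and 32 knockdown and 36 control reads with shTIP60-C (-1.14). Both RAB5B regions were called in the control library only, in both tables, which share that control, so a lower knockdown value there was set by the choice of region.

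RAB5C, the close relative of RAB5B, had 38 shTIP60-B reads and 63 control reads (deposited M -0.60) and 99 shTIP60-C reads and 60 control reads (-0.24). RAB20, of phagosomes, had 66 shTIP60-B reads and 54 control reads (deposited M 0.47, interval -0.07 to 1.02), and -0.15 at its second region. RAB31, of the trans-Golgi and endosomes, had 241 shTIP60-C reads and 101 control reads (deposited M 0.32), and -0.37 with shTIP60-B. Its narrower shTIP60-B regions had -0.64 (-1.26 to -0.045) and 0.09 (-0.66 to 0.85). RAB21, which carries integrins, had 0.10 with shTIP60-B and -0.34 with shTIP60-C, with intervals that span 0 in both. Its other shTIP60-C region, with 167 knockdown and 113 control reads, had -0.38 with an interval just below 0 (-0.73 to -0.02).

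Recycling and delivery to the plasma membrane is the work of 11 measured RABs. With shTIP60-B 1 of them fell, RAB14, 0 rose, and 3 were lower and 1 higher by 1.5-fold (median M -0.08); with shTIP60-C 0 passed, 1 was lower and 2 higher by 1.5-fold, and the median was 0.19. RAB14 had 178 shTIP60-C reads and 81 control reads, a deposited M of 0.19 (interval -0.19 to 0.59). RAB11B had 163 shTIP60-B reads and 336 control reads (deposited M -0.74, -1.02 to -0.46) and 519 shTIP60-C reads and 334 control reads (-0.27, -0.47 to -0.07). RAB13, of tight junctions, had 6 knockdown and 17 control reads with shTIP60-B (deposited M -1.47) and 18 knockdown and 17 control reads with shTIP60-C (-0.92, interval -1.96 to 0.13). RAB11B was lower with both hairpins on many reads, while RAB13 rests on few, in a region called in the control only.

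On the higher side stood RAB12, which in mouse cells sends transferrin receptor to degradation, with 31 shTIP60-B reads and 14 control reads (deposited M 1.18, interval 0.23 to 2.21). With shTIP60-C it had 56 knockdown and 14 control reads (0.96, 0.10 to 1.92). Its further shTIP60-C region, centred at -450 bp from the start, had 39 knockdown and 3 control reads. All these RAB12 regions were called in the knockdown only, so a higher value there was set by the choice of region. RAB35, of fast recycling, had 54 shTIP60-B reads and 43 control reads (deposited M 0.48, -0.12 to 1.10) and 75 shTIP60-C reads and 19 control reads (0.97, 0.23 to 1.78), with shTIP60-C in a region called in the knockdown only. The direction for RAB35 depended on the region: at a region 500 bp inside the gene it had 25 knockdown and 32 control reads with shTIP60-B (deposited M -0.28) and 43 knockdown and 32 control reads with shTIP60-C (-0.56). RAB15 had deposited M of 0.55 (61 knockdown and 47 control reads) with shTIP60-B and 0.49 (136 knockdown and 50 control reads) with shTIP60-C.

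The remaining plasma membrane RABs stayed near 0. RAB10, of GLUT4 delivery and basolateral transport, had 223 shTIP60-B reads and 291 control reads (deposited M -0.04, interval -0.30 to 0.22), and 635 shTIP60-C reads and 292 control reads (0.22, 0.02 to 0.43). RAB4A, of rapid recycling, had deposited M of -0.15 with shTIP60-B and 0.24 with shTIP60-C, from 104 and 306 knockdown reads against 137 control reads. RAB8A, RAB11A and RAB17 had intervals that span 0 with both hairpins. A further RAB8A region, centred 510 bp inside the gene, had -0.697 (-1.47 to 0.047) with shTIP60-B.

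The 6 RABs of late endosomes, lysosomes and related organelles had medians of M of -0.13 with shTIP60-B and -0.27 with shTIP60-C, and 0 fell or rose with either. RAB7A had 235 shTIP60-B reads and 290 control reads (deposited M 0.05, interval -0.21 to 0.30), and 517 shTIP60-C reads and 291 control reads (-0.08, -0.29 to 0.14). RAB24, linked to autophagy, had 117 shTIP60-B reads and 134 control reads (0.07) and 184 shTIP60-C reads and 134 control reads (-0.48, -0.81 to -0.15). RAB42 had 13 knockdown and 16 control reads with shTIP60-B (deposited M -0.30) and 19 knockdown and 16 control reads with shTIP60-C (-0.76), and both its intervals span 0. RAB9A, RAB29 and RAB32 had intervals that span 0 with both hairpins.

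Regulated secretion had the lowest medians of the larger groups, -0.76 over 5 genes with shTIP60-B and -0.32 over 4 with shTIP60-C, while 0 passed fold 2 and p together. After subtracting the 10 Mb medians they were -0.33 and -0.35. With shTIP60-B the regions of RAB3B, RAB26 and RAB27B were called in the control only, and that of RAB3D in the knockdown only. RAB3B, of regulated exocytosis, had 6 shTIP60-B reads and 22 control reads, a deposited M of -1.83 (interval -3.42 to -0.48). With shTIP60-C it had 8 reads to the same 22 and -2.37 (-3.75 to -1.15, deposited p 0.00052). By each gene's region with most reads it was lowest of the family with both hairpins. This RAB3B region of 558 bp in the 5′ UTR (chromosome 1, 52456023 to 52456581, hg19) was called in the control library only. RAB3D, another RAB of secretory granules, had 27 shTIP60-B reads and 11 control reads (deposited M 1.29, 0.24 to 2.45) and no overlapping region in the shTIP60-C table.

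RAB27B, which docks secretory vesicles and exosomes, had 16 shTIP60-B reads and 37 control reads (deposited M -1.15, interval -2.10 to -0.27) and 70 shTIP60-C reads and 40 control reads (-0.17). These are different regions. The one used with shTIP60-B had 48 shTIP60-C reads and 37 control reads (-0.60, -1.25 to 0.06). RAB27A, its relative, had 137 shTIP60-B reads and 199 control reads (deposited M -0.26) and 338 shTIP60-C reads and 199 control reads (-0.15). RAB26 had 15 shTIP60-B reads and 26 control reads (-0.76), while shTIP60-C gave 37 knockdown and 26 control reads (-0.48). At these regions the intervals of RAB26 and RAB27A span 0 in both tables. A second RAB26 region, centred 460 bp inside the gene, was called in the control only in both tables. It had 5 shTIP60-B reads and 23 control reads (-2.13, -3.88 to -0.70) and 21 shTIP60-C reads and 23 control reads (-1.12, -2.04 to -0.20). A lower knockdown value there was set by the choice of region.

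RAB28, the one gene placed in the cilium group, had 391 shTIP60-C reads and 236 control reads, a deposited M of -0.19 (interval -0.42 to 0.05). RAB40C, a RAB with a SOCS box that recruits a ubiquitin ligase, had 104 shTIP60-B reads and 172 control reads (deposited M -0.48, -0.84 to -0.12) and 359 shTIP60-C reads and 175 control reads (0.12, -0.15 to 0.39). RAB30, listed under its own name with shTIP60-B only, had 128 knockdown and 168 control reads (-0.12). In the shTIP60-C table the overlapping region is named for RAB30-AS1, the antisense gene, and had 237 knockdown and 154 control reads (-0.31, -0.60 to -0.004); reads of a shared promoter cannot be told apart.

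**Figure D4:**
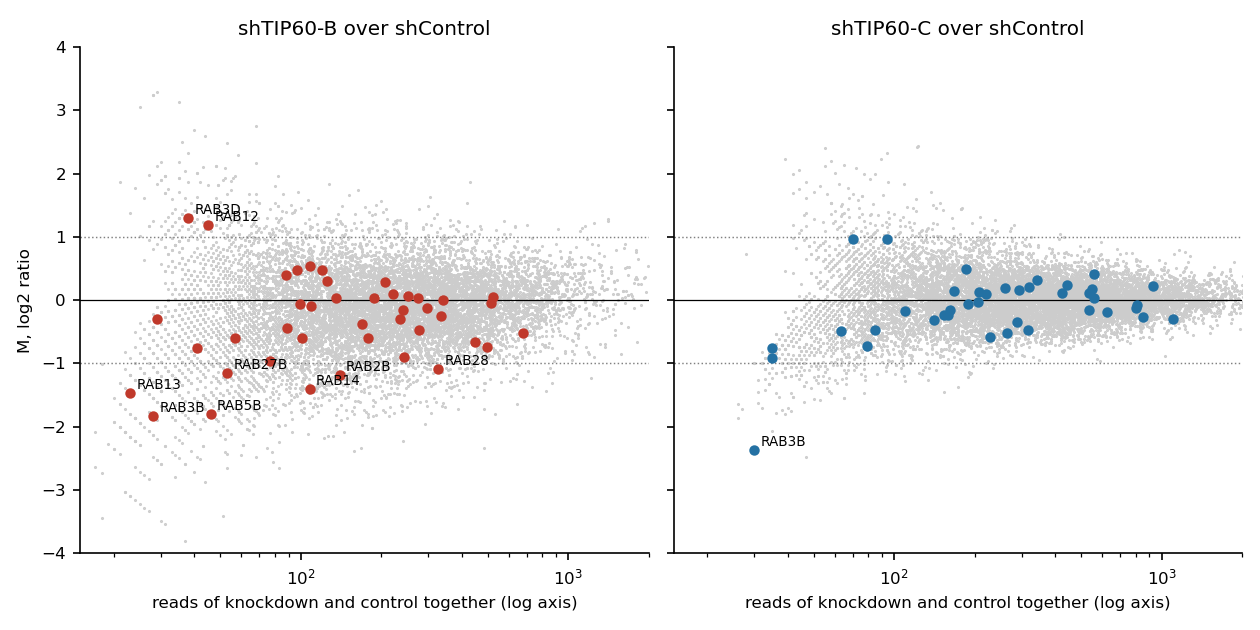
M (log2, knockdown over shControl) against the reads of both libraries together (log axis), for RAB promoters (coloured) and all genes with a promoter region (grey), with shTIP60-B left and shTIP60-C right; dotted lines mark a fold of 2 and RAB genes past it are named. RAB28 with shTIP60-B is the named point with the most reads, and RAB3B with shTIP60-C is the one named point on the right.

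Close relatives of the same number were set side by side. With shTIP60-B, RAB1A had a deposited M of -0.52 and RAB1B of 0.29; with shTIP60-C these were -0.30 and 0.17. RAB11A stood at 0.30 and RAB11B at -0.74 with shTIP60-B, where shTIP60-C gave 0.12 and -0.27. RAB2A stood at 0.01 and RAB2B at -1.18 with shTIP60-B, where shTIP60-C gave 0.04 and -0.58. In these 3 pairs the counting intervals of the relatives lay apart with shTIP60-B and overlapped with shTIP60-C. For RAB11A and RAB11B this held with shTIP60-B at each listed promoter region, but the other pairs depended on the region. The other RAB1B region had -0.004 (interval -0.45 to 0.44) and the other RAB2B region -0.76 (-1.54 to -0.01) with shTIP60-B, which overlap RAB1A and RAB2A, while with shTIP60-C the other RAB2B region, at -1.08 (-1.76 to -0.41), lay apart from RAB2A. RAB3B (-1.83) and RAB3D (1.29) were each called only in the library where they are high, and are not compared. The intervals of RAB5B and RAB5C (-1.80 and -0.60) and of RAB27A and RAB27B (-0.26 and -1.15) overlapped.

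At the control regions the 2 knockdown libraries can be compared without the control. The interval of the log2 ratio of shTIP60-B over shTIP60-C lay below 0 for 10 of 39 RAB promoters and above 0 for 2, beside 22.3% and 15.8% of all 10772 genes with reads in both. The 10 were RAB10, RAB11B, RAB14, RAB1A, RAB22A, RAB28, RAB31, RAB34, RAB40C and RAB43. RAB14 had the lowest, -1.31 (interval -1.94 to -0.73), from 28 shTIP60-B reads and 165 shTIP60-C reads. RAB43 had -0.82 (-1.20 to -0.45) and RAB28 -0.79 (-1.13 to -0.46). RAB24 had 0.59 (0.25 to 0.94) and RAB21 0.48 (0.11 to 0.84), so at these the shTIP60-B level was the higher.

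With shTIP60-B the median of whole chromosomes lay off 0, most on 20 and 16 among the chromosomes with a RAB promoter. Over all regions of chromosome 20 the median M was -0.69 with shTIP60-B and 0.01 with shTIP60-C, and over chromosome 16 it was -0.49 and -0.03. RAB22A, the RAB gene on chromosome 20, had 152 shTIP60-B reads and 295 control reads, a deposited M of -0.66 (interval -0.95 to -0.37), and 509 shTIP60-C reads and 295 control reads (-0.12). The median of its 10 Mb window was -0.66 with shTIP60-B, which leaves 0.002. On chromosome 16 RAB40C was at 0.14 and RAB26 at -0.14 after the same subtraction. The RABs of other chromosomes did not all lie on their chromosome's side: RAB14 had -1.41 on chromosome 9 (median 0.20), and RAB43 -0.90 on chromosome 3 (0.24). RAB7A, also on chromosome 3, had 0.05, on the same side as that median. RAB4A moved to 0.39 and RAB13 to -0.73, while RAB14 went to -1.67 and RAB43 to -1.14. Why these stretches lie off 0 was not tested.

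**Figure D5:**
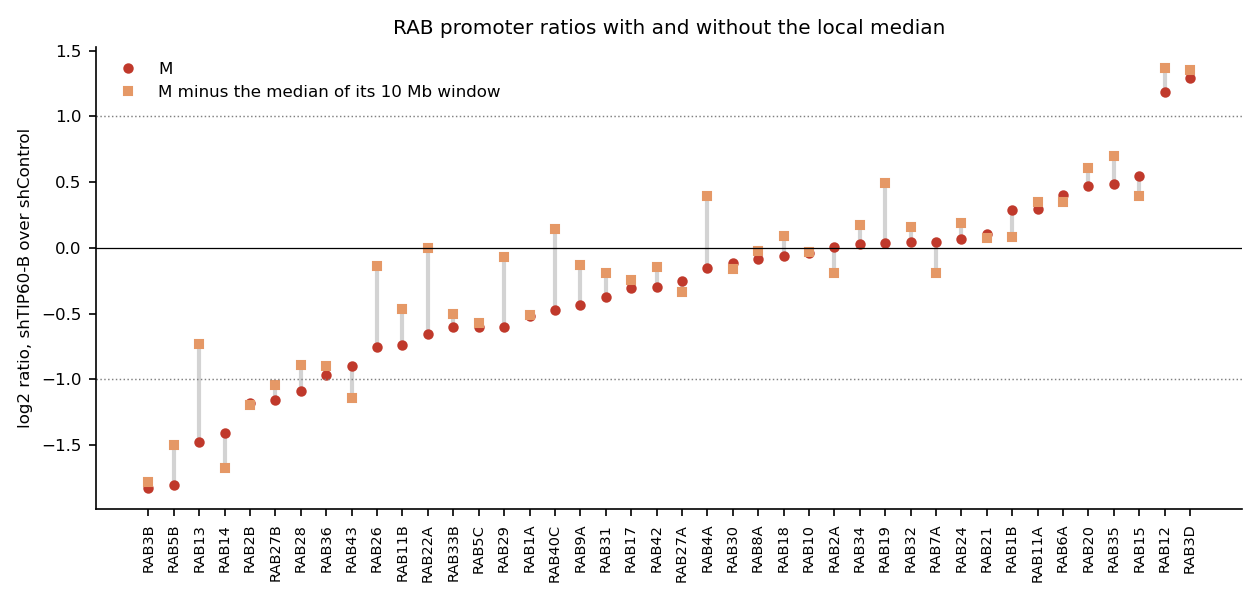
M with shTIP60-B for the 42 RAB promoters (circles) and the same after subtracting the median M of all regions in its 10 Mb window (squares), sorted by M; dotted lines mark a fold of 2. RAB22A is at 0.002 after the subtraction and -0.66 before it, and RAB14 is at -1.67 after it and -1.41 before it.

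The rule's distance limit touched few genes. Just inside it was RAB43, at 984 bp in both tables, and just outside was a region of RAB13 at -1023 bp, which had 39 shTIP60-B reads and 49 control reads (deposited M -0.20) and 92 shTIP60-C reads and 49 control reads (-0.06).

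Away from start sites, 67 regions nearest to 25 RAB genes were listed with shTIP60-B and 83 nearest to 25 with shTIP60-C. Overlapping copies of a peak called in both libraries are counted separately, here and among all such regions, so the distinct sites are fewer. With shTIP60-B 2 fell and 2 rose (2.99% each), beside 3.13% and 2.61% of 40667 such regions, and the median M was -0.34 against -0.06. Many of the RAB regions were called in a single library, most of those in the control only, so their direction was largely fixed by that call. The medians were not split by it, so the lower RAB median is no support for a shift away from start sites. With shTIP60-C 0 fell or rose, beside 0.0603% and 0.283% of 43139 regions, and the medians were -0.06 and -0.04.

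In RAB7A intron 1, 65110 bp from the start site, a region annotated to an Alu repeat had 33 shTIP60-B reads and 2 control reads (deposited M 3.60, interval 1.63 to 6.70). Of the shTIP60-C regions nearest to RAB7A none overlapped it. A region 30066 bp from the start of RAB35, inside an intron of another annotated transcript, had 52 knockdown and 16 control reads (1.80, 0.96 to 2.70), and in the shTIP60-C table its overlapping region had 64 knockdown and 16 control reads (0.97, 0.17 to 1.86). A region 19929 bp from the start of RAB3D had 36 shTIP60-B reads and 97 control reads (deposited M -1.30, -1.89 to -0.73) and 112 shTIP60-C reads and 97 control reads (-0.74). A region 8737 bp from RAB42 had 20 shTIP60-B reads and 65 control reads (-1.62, -2.42 to -0.88) and 85 shTIP60-C reads and 65 control reads (-0.57). With shTIP60-B the RAB7A and RAB35 regions were called in the knockdown only and the RAB42 region in the control only. RAB31 had the most distal regions, 17 with shTIP60-B and 18 with shTIP60-C, overlapping copies included, with medians of -0.15 and -0.12. The nearest gene is a position, not a measured target.

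The proteins that switch RABs on and off came next; their counts stand beside the shares of all genes that fell and rose, 3.53% and 1.29% in the shTIP60-B table, 0.0433% and 0.147% in the other. Of 10 GDP dissociation inhibitor, escort and prenylation genes 9 were measured, and 0 fell or rose with either hairpin (median M -0.43 with shTIP60-B, -0.14 with shTIP60-C). GDI2, which extracts RABs from membranes, had 252 shTIP60-B reads and 329 control reads (-0.02). Of 48 exchange factors 40 were measured: with shTIP60-B 1 fell, DENND4B, an activator of RAB10, with 64 knockdown and 169 control reads (deposited M -1.21, interval -1.64 to -0.78; -0.46 after subtracting the median of its 10 Mb window), and 0 rose. With shTIP60-C DENND4B had 297 knockdown and 168 control reads (-0.10). Of 38 TBC-domain activators of GTP hydrolysis 29 were measured with shTIP60-B (median M -0.34) and 31 with shTIP60-C (-0.08), and 0 fell or rose.

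Of 54 RAB effectors, 45 were measured with shTIP60-B, where 1 fell and 1 rose, beside the same shares of all genes. PLEKHM1, a RAB7A effector at lysosomes, fell with 56 shTIP60-B reads and 155 control reads (deposited M -1.29, interval -1.75 to -0.84). FYCO1, which links RAB7A vesicles to kinesin, rose with 147 shTIP60-B reads and 83 control reads (1.11, 0.71 to 1.51), and was at 0.99 after subtracting the median of its 10 Mb window. With shTIP60-C 44 were measured and 0 fell or rose: PLEKHM1 had 258 knockdown and 156 control reads (-0.20) and FYCO1 186 knockdown and 86 control reads (0.17).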

How the data were processed

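Crosslinked chromatin (10 min, 1% formaldehyde) was sheared to between 100 and 1000 bp and sequenced as 75 bp pairs, per the labels' protocols. Per the submitters' processing notes, Bowtie2, MACS 1.4.2 and the hg19 build were used. The deposited tables carry the name of MAnorm, which rescales a pair of libraries on their common peaks, and a HOMER annotation header; for neither is a version given in the sources used here. Per the file headers, each row gives whole-number read counts of both libraries (not normalised), M (a log2 ratio rescaled by the authors), A (a mean log2 signal) and the −log10 of the deposited p-value, not adjusted for the number of regions; an infinite value was counted as past the threshold. The deposited annotation gives the distance to the nearest start site in bp. The column order was read from the comparison in the header, and the 36034 control regions have equal control counts in both tables. The tables were normalised separately.

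Computed here, with Python 3.11.15, pandas 2.3.3, NumPy 2.4.6, SciPy 1.17.1 and matplotlib 3.10.9: the gene's region with most reads, counting intervals, levels at control regions, medians of 10 Mb windows with at least 50 regions, and exact binomial p-values. The interval code was tested on simulated data. A count of 0 was set to 3 reads. RefSeq (GRCh38.p14) gave gene names and promoter sequences only. The RAB genes, compartment groups and pathway lists were chosen with earlier results of these data known. Named with values are RAB genes past the threshold, the 6 lowest and 6 highest in M per hairpin, relatives of the same number, the 4 with most reads, those on chromosomes 16 and 20, those at the distance limit, and up to 4 past the threshold in other lists; RAB genes beyond these are named to account for each compartment. Some genes of the other lists are not reported here.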

Additional observations from a re-analysis of the deposited data

How the results depend on the processing

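Scaling by table totals, subtracting 10 Mb medians, other choices of region, a 3 kb limit, leaving out knockdown copies and leaving out the 25% lowest in A gave 2 or 3 RAB promoters past fold 2 and p with shTIP60-B and 0 with shTIP60-C. For shTIP60-B this count was 5 at fold 1.5 with p 1e-05 (RAB11B, RAB14, RAB22A, RAB28 and RAB43), 4 at fold 2 with p 0.001 and 1 with an exact binomial p (RAB28). For shTIP60-C it was 1 with p 0.001 (RAB3B) and 0 with the binomial p. Shares of all genes are not set beside these counts, and a looser rule can pass more of all genes too. The counts show only how the calls depend on the rule. Past fold 1.5, there were 10 RAB promoters without the 25% lowest in A and 8 with at least 100 reads or only regions called in both libraries, against 17, with shTIP60-B, and 0 in all these cases, against 6, with shTIP60-C. The split past fold 1.5 with shTIP60-B was 15 lower and 2 higher as deposited, 12 and 4 scaled by table totals, and 9 and 4 after subtracting 10 Mb medians, where 22.6% and 10.1%, 18.4% and 11.4%, and 16.1% and 11.3% of all genes were lower and higher. The family's median was -0.28, -0.18 and -0.14 in these settings, and the all-gene median -0.13, -0.08 and -0.03. RAB28 missed fold 2 after that subtraction (-0.89) and at the control regions scaled by their totals (-0.97), while RAB43 passed after it (-1.14) and as a mean over its regions (-1.05). Scaling by totals, the subtraction and the mean over regions changed M only. The deposited p of the region with most reads was kept, so these calls are not new tests. Of 636 single-gene values 7 moved past their interval, those of RAB22A, RAB40C and RAB4A (subtraction), RAB20 and RAB35 (without knockdown copies) and RAB35 with shTIP60-C (mean over regions, 0.20, and control regions, -0.46). The limit of 100 reads, the control regions and the restriction to regions called in both libraries were chosen after seeing the data. The cause was not tested. Low reads bound in particular the ratios of the RAB promoters with under 100 reads, 14 with shTIP60-B and 8 with shTIP60-C. No paired analysis was possible because each hairpin has 1 H4ac library.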

Other observations

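Other families of small GTPases were read in the same way, beside the 3.53% of all genes that fell and 1.29% that rose in the shTIP60-B table, and the 0.0433% and 0.147% that did so in the other. Of 26 ARF and ARL genes, which recruit coats and tethers to membranes, 21 were measured with shTIP60-B, where 0 rose and the median M was -0.03; with shTIP60-C 22 were measured and 0 fell or rose (-0.08). Genes that fell with shTIP60-B included ARF5 and ARFRP1. ARF5 had 53 shTIP60-B reads and 135 control reads (deposited M -1.18) and 246 shTIP60-C reads and 136 control reads (-0.07). ARFRP1, on chromosome 20, had 61 shTIP60-B reads and 143 control reads (-1.04) and 296 shTIP60-C reads and 143 control reads (0.13), and was at -0.34 after subtracting the median of its 10 Mb window with shTIP60-B.

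Of 33 RAS genes 19 were measured with shTIP60-B, where 2 fell, DIRAS1 (22 knockdown and 81 control reads, -1.79) and RIT1 (10 knockdown and 45 control reads, -2.11), both in regions called in the control only, and the median was -0.48; of the 18 measured with shTIP60-C 0 fell or rose and the median was -0.04. Of 7 RAB-like genes 4 were measured with shTIP60-B (median M -0.537) and 5 with shTIP60-C (0.115), and of these 0 fell or rose with either hairpin.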
